A study of Rattus norvegicus with 8 samples.

Results

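The BCL2 family, the initiator caspases and the death receptor Fas were examined in rat ovaries exposed to the androgen 5α-dihydrotestosterone (DHT). The 9 genes were Bcl2, Bcl2l1, Mcl1, Bax, Bcl2l11, Bid, Fas, Casp8 and Casp9, taken as the apoptosis genes of follicle atresia, and each was read from the probe sets annotated to its symbol alone. Of these 9 genes, 8 were measured, by 19 probe sets, out of 14217 genes and 31042 probe sets on the array. The gene Bax had no probe set of its own and was read only through one annotated to both Bax and LOC681314, so it is given separately. Where a gene had several probe sets, the one with the highest mean over the single-animal arrays stands for it and the others are given beside it.

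Both groups were female Sprague-Dawley rats, 15 weeks old when ovaries were taken. The DHT group had received DHT from a silicone implant over the previous 12 weeks, as a rat model of polycystic ovarian syndrome, and the control (CTL) group had an implant without DHT. Ovarian cortex RNA of 3 DHT and 3 CTL animals was hybridized to 1 Affymetrix GeneChip rat genome array each, and 1 further array per group held the pooled RNA of the same 3 animals. The deposited values are log2 expression, so a difference of 1 is a 2-fold change.

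Most ovarian follicles never ovulate but degenerate by atresia, in which granulosa cells die by apoptosis. In the mitochondrial route, survival proteins of the BCL2 family hold back the pore formers Bax and Bak1, BH3-only proteins such as Bcl2l11 and Bid release that block, and the cytochrome c that leaks out activates Casp9. In the death receptor route, Fas recruits and activates Casp8, which can also cleave Bid and so join the routes together. Much of this control acts on proteins, by cleavage, phosphorylation and binding, which an mRNA array does not measure.

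The CTL replicate 3 array stood apart from the other arrays. It correlated with CTL replicates 1 and 2 at 0.866 and 0.879 over all probe sets, below its values of 0.898 to 0.907 with the DHT arrays. The background level, set as the 95th percentile of 28 olfactory, vomeronasal and taste receptor probe sets, was 3.05 on this array and 2.62 to 2.69 on the other single-animal arrays. The Gapdh 3′ control probe set exceeded the 5′ one by a log2 amount that grows when RNA is shortened, and this 3′ to 5′ difference was 2.99 to 3.98 in DHT ovaries, against 0.39, 0.62 and 3.49 in CTL replicates 1, 2 and 3. Results that CTL replicate 3 moves are therefore given with and without it. Without it, every DHT array had a larger Gapdh difference than both remaining CTL arrays. In that fit DHT treatment and the Gapdh difference cannot be told apart, also where a probe set was called. Marker levels of ovarian cell types also differed in their means. All 4 measured corpus luteum markers had lower means in DHT ovaries (list mean 5.90 to 7.84 on the DHT arrays and 8.14 to 10.02 on the CTL arrays). All 3 endothelial markers had lower means too (5.30 to 5.89 and 6.14 to 6.88). The granulosa markers Foxl2, Inha, Amh and Nr5a2 were above background on every array (list mean 8.84 to 9.18 and 7.79 to 8.61). None of these luteal, endothelial and granulosa markers was called in the fit of all single-animal arrays. Their smallest adjusted limma p values there were 0.21 for Star, 0.268 for Kdr and 0.238 for Amh. Without CTL replicate 3, Inha (log2 difference 1.23), Pecam1 (−1.39) and Kdr (−1.48) were called, beside 5.23% of all probe sets. With the pools, which repeat the same animals, as replicate 4, these and Star and Scarb1 were called, beside 3.11% of all probe sets. Both theca markers had higher means in DHT ovaries (list mean 7.31 to 8.54 and 4.15 to 5.93). Insl3 of them was called, at a log2 difference of 3.11 (adjusted limma p 0.0575). Cyp17a1 differed by 2.65 (adjusted limma p 0.418), was not called, and its groups overlapped. Of the 5 oocyte markers, Zp2 was above background on every array and called higher, at a log2 difference of 1.55 (adjusted limma p 0.087). Zp3 and Gdf9, above background on some arrays, differed by 0.22 and −0.09 (adjusted limma p 0.896 and 0.902). Without CTL replicate 3 they were at −0.11 and −0.29. Zp1 and Bmp15 were not above background on any of these arrays. In tissue RNA, fewer cells of a type and less RNA per cell cannot be told apart.

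No member passed the test between DHT and CTL ovaries. Calls required a limma fold change of at least 2, a p of at most 0.01 and a false discovery rate of at most 10%, which 0 of the 8 measured genes and 0 of their 19 probe sets met, where 1.03% of all probe sets did. With no fold minimum the count was again 0 of 19, beside 1.87% of all probe sets, and with the pools counted as replicate 4 it was 0 of 8 genes, beside 3.11% of all probe sets. At an unadjusted limma p under 0.05 the count was also 0 of 19, against 11.9% of all probe sets. The ranges of the groups overlapped for all 19 member probe sets, whereas they did not overlap for 17.5% of all probe sets. The median log2 difference of the 8 genes was −0.09, beside −0.03 over all probe sets, with 5 genes below 0 and 3 above. With 3 animals in each group an exact permutation test cannot give a p below 0.1, so the limma fit and its 95% intervals carry the comparison.

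Background limited what could be seen of several members. Of the 19 probe sets, 7 were above background on all 6 single-animal arrays, 5 on 1 to 5 of them, and 7 on none. Over the whole array, 51.6% of probe sets were above background on all 6. The 7 belonged to Bcl2l1, Mcl1, Bcl2l11, Casp8 and Fas. CTL replicate 3 gave the highest value for 12 of the 19 member probe sets, and 9 of these 12 were not above background on all 6 arrays. Over all probe sets the share with its highest value on that array was 51.4%, made up of 76.0% of those not above background on all 6 arrays and 28.3% of those above.

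**Figure D1:**
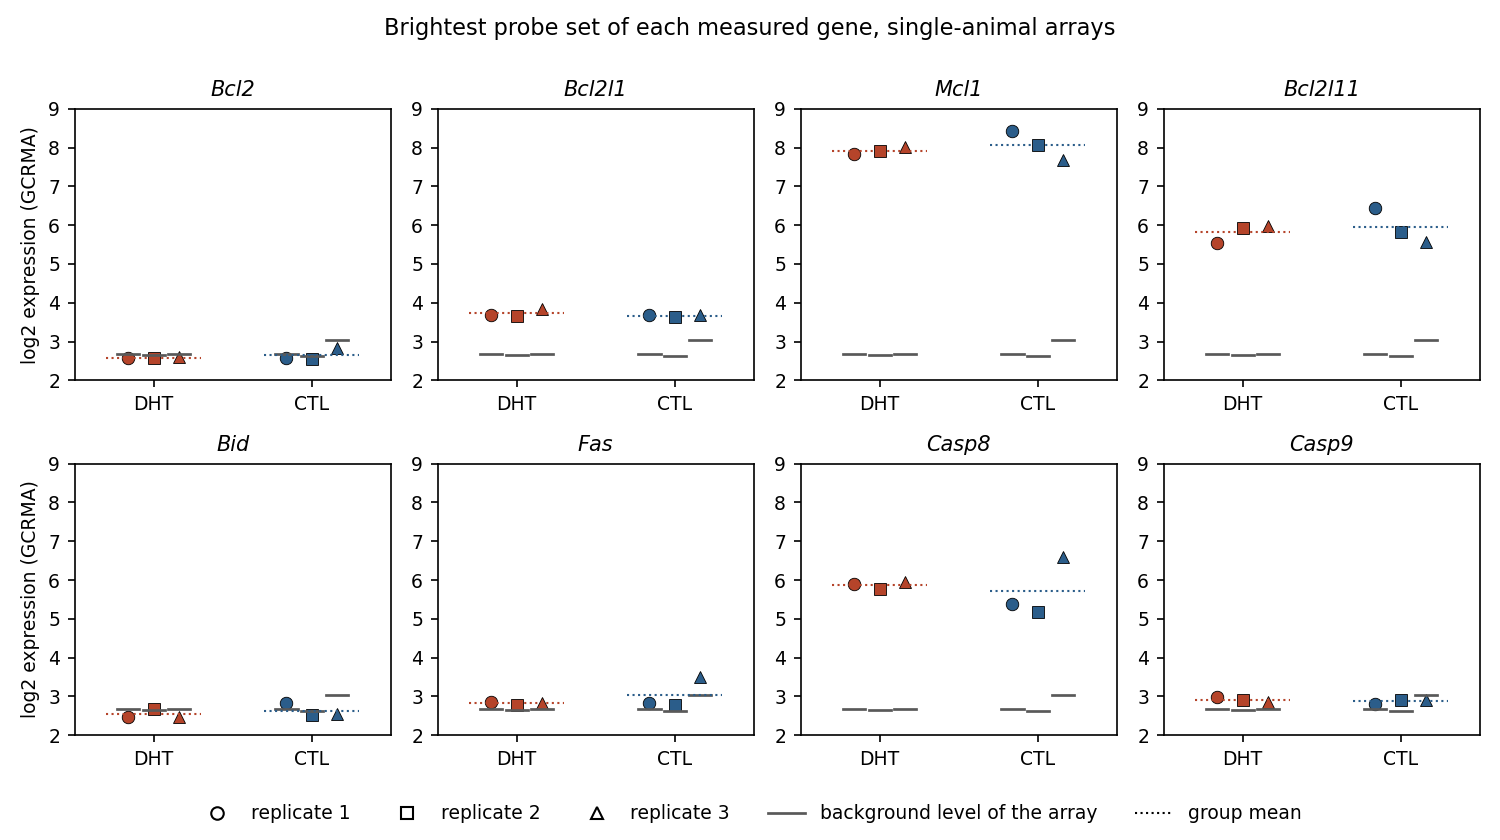
Log2 expression (GCRMA) of the brightest probe set of each measured gene on each single-animal array, DHT left and CTL right, with replicates 1, 2 and 3 as circle, square and triangle. Grey bars are the background level of each array and dotted lines the group means. The groups overlapped for all 8 genes, Bcl2 lay at or below background throughout, and CTL replicate 3 was highest for Casp8 and Fas and lowest for Mcl1.

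Among the survival proteins, Mcl1, a short-lived protein that sequesters BH3-only proteins, was measured well above background. On the log2 scale it read 7.84, 7.91 and 8.02 in DHT ovaries, against 8.43, 8.06 and 7.69 in CTL ovaries. The DHT animals lay close together, between the highest and the lowest CTL animal. The means were 7.92 ± 0.09 in DHT and 8.06 ± 0.37 in CTL ovaries (SD, n = 3 each), a log2 difference of −0.14 ± 0.20 (SE) with an adjusted limma p of 0.896. The 95% interval of the fold change ran from 0.639 to 1.29 and did not reach a 2-fold change in either direction. The arrays of pooled RNA gave 7.83 for DHT and 8.20 for CTL. Without CTL replicate 3 the log2 difference was −0.32 with an adjusted p of 0.253, whereas the DHT mean lay 0.23 above CTL replicate 3.

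A second probe set of Mcl1 gave another picture of the same gene. It read 3.37, 3.68 and 3.30 in DHT ovaries, against 5.08, 4.69 and 3.45 in CTL ovaries. CTL replicates 1 and 2 were high, and CTL replicate 3 fell among the DHT animals. The log2 difference was −0.96 ± 0.45 (SE) with a 95% interval of −2.09 to 0.18 and an adjusted limma p of 0.499. Without CTL replicate 3 it became −1.44 ± 0.18 and was called, with an adjusted p of 0.0383, among 5.23% of all probe sets called in that fit. The DHT mean differed from CTL replicate 3 by 0.00. The pools read 3.30 for DHT and 4.01 for CTL. The 4 arrays on which this probe set was low were those with a Gapdh 3′ to 5′ difference of 2.99 or more, and with that difference as a covariate the log2 difference was 0.01. Among the CTL arrays only replicate 3 lay within the DHT range of the Gapdh difference. The covariate fit therefore compares the DHT animals mainly with that array.

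Bcl2l1, which encodes the survival protein BCL-XL, had nearly level values. They were 3.69, 3.66 and 3.84 in DHT ovaries and 3.69, 3.63 and 3.69 in CTL ovaries. DHT replicate 3 was the highest, and the other values of both groups lay between 3.63 and 3.69. The log2 difference was 0.06 ± 0.07 (SE), with an adjusted limma p of 0.896 and a fold interval of 0.920 to 1.19. Of its other probe sets, 1 was above background on no array and 1 on CTL replicate 3 alone, with 2.61, 2.58 and 2.62 in DHT ovaries and 2.58, 2.56 and 3.21 in CTL ovaries.

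Bcl2, the survival protein after which the family is named, was not above background on any array. Its probe set read 2.57, 2.57 and 2.59 in DHT ovaries, against 2.57, 2.56 and 2.83 in CTL ovaries, and the higher value belonged to CTL replicate 3, whose own background level was higher. No fold change is given for it, and how its mRNA compared between the groups was not detectable with this probe set.

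The pore former Bax was covered only by the probe set shared with LOC681314, whose signal cannot be split between the 2 annotations. It read 5.29, 5.15 and 5.23 in DHT ovaries and 6.0, 5.43 and 5.52 in CTL ovaries. All 3 DHT values lay below all 3 CTL values, as for 6.85% of all probe sets. DHT and CTL ovaries differed by −0.43 ± 0.17 (SE) on the log2 scale, with the 95% interval of the fold change 0.555 to 0.998 and the adjusted limma p 0.42, which did not pass. The pools were 5.22 for DHT and 5.38 for CTL, and the DHT mean lay 0.30 below CTL replicate 3.

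Among the BH3-only members, Bcl2l11, which encodes the pro-apoptotic protein BIM, was above background on every array. It read 5.55, 5.92 and 5.97 in DHT ovaries, against 6.45, 5.82 and 5.57 in CTL ovaries. The highest value was CTL replicate 1 and the lowest DHT replicate 1, with CTL replicate 3 next to it. Between the means lay a log2 difference of −0.14 ± 0.26 (SE), with an adjusted limma p of 0.896 and a fold interval of 0.573 to 1.44. The DHT pool read 5.84 and the CTL pool 6.29. Without CTL replicate 3 the log2 difference was −0.33 (adjusted limma p 0.458), while the DHT mean was 0.24 above CTL replicate 3. A second probe set read 2.82, 2.76 and 2.81 in DHT ovaries and 2.75, 2.73 and 3.27 in CTL ovaries, and the remaining one was not above background.

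Bcl2l11 is known as a target of forkhead (FOXO) transcription factors, whose core motif reads GTAAACA, and its promoter is shown because it was the 1 member of 7 with this motif in the RefSeq window. On the opposite strand the same core reads TGTTTAC, and both strands were searched. The windows run from 250 bases before to 50 bases after a gene start on assembly GRCr8, and were found for 7 of the members. The motif, on either strand, was present in 1 of the 10 windows of these genes and in 3.78% of 33469 such rat windows. The Bcl2l11 window is chr3:135819792-135820091 on the plus strand, with the motif in capitals starting at position −204 from the gene start.
Bcl2l11: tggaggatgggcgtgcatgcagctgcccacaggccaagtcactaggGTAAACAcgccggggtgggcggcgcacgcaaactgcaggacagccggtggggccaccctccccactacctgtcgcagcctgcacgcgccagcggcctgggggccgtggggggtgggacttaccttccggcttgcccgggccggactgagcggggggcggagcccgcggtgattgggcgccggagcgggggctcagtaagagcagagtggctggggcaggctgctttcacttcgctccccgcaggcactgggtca
The GC box core GGGCGG, bound by SP1, was searched on both strands too. It was present in 6 of the 10 windows of these genes, each of a different gene, and in 33.1% of all windows. A match is a run of letters and does not show that a factor was bound. The levels of the FOXO genes Foxo1 and Foxo3 themselves are given with the other pathway genes.

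Bid, the BH3-only protein that Casp8 cleaves, was near background. Its probe set read 2.47, 2.67 and 2.47 in DHT ovaries and 2.84, 2.53 and 2.54 in CTL ovaries. Only DHT replicate 2 and CTL replicate 1 exceeded the background level of their arrays. The fitted log2 difference was −0.10 ± 0.12 (SE) with an adjusted limma p of 0.896, and its second probe set was not above background on any array.

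Fas, the death receptor, was low but above the background level on all 6 arrays. It read 2.86, 2.79 and 2.84 in DHT ovaries, against 2.82, 2.79 and 3.50 in CTL ovaries. CTL replicate 3 was high and the other animals of both groups lay between 2.79 and 2.86. Its log2 difference was −0.20 ± 0.21 (SE), with an adjusted limma p of 0.896 and a fold interval of 0.601 to 1.26. Without CTL replicate 3 it was 0.03, on the other side of 0. Adjusted for the Gapdh difference as a covariate it was −0.64 ± 0.08 (SE, adjusted limma p 0.0157), past the false discovery rate but not the fold minimum. In that fit 18153 of 31042 probe sets had an unadjusted limma p under 0.05. Bcl2, not above background on any array, passed the same rate there (adjusted limma p 0.0176). The DHT mean of Fas lay 0.66 below CTL replicate 3. Of its other probe sets, 1 was above background on 3 DHT arrays and 1 CTL array and the other on none.

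Casp8, the initiator caspase of the death receptor route, had the widest spread among CTL animals of the 8 genes. It read 5.89, 5.76 and 5.95 in DHT ovaries and 5.39, 5.19 and 6.60 in CTL ovaries. The DHT animals lay above CTL replicates 1 and 2 and below CTL replicate 3. The log2 difference was 0.14 ± 0.39 (SE), with an adjusted limma p of 0.904 and a fold interval of 0.552 to 2.19, which does not exclude a 2-fold rise. Without CTL replicate 3 the log2 difference was 0.57 ± 0.09 with an adjusted limma p of 0.0526. That passed the false discovery rate, as did 15.6% of all probe sets in that fit, but not the fold minimum. The DHT mean was 0.73 below CTL replicate 3, and the pools read 5.85 for DHT and 5.52 for CTL.

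The second probe set of Casp8 ran the other way. It read 2.82, 2.86 and 2.73 in DHT ovaries, against 4.25, 3.75 and 2.34 in CTL ovaries. CTL replicates 1 and 2 were above the DHT animals, and CTL replicate 3 was lowest and not above background. The log2 difference was −0.64 ± 0.51 (SE) with a 95% interval of −1.93 to 0.64 and an adjusted limma p of 0.843, and it was −1.20 ± 0.17 with an adjusted p of 0.0441, a call, without CTL replicate 3. In that fit the 2 probe sets of Casp8 therefore lay on opposite sides of 0. The pools read 2.83 for DHT and 3.01 for CTL. As for Mcl1, the high values of the second probe set were those of the arrays with a Gapdh 3′ to 5′ difference of 0.39 and 0.62. With the difference as a covariate its log2 difference was 0.43, beside 0.47 for the DHT mean minus CTL replicate 3.

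**Figure D2:**
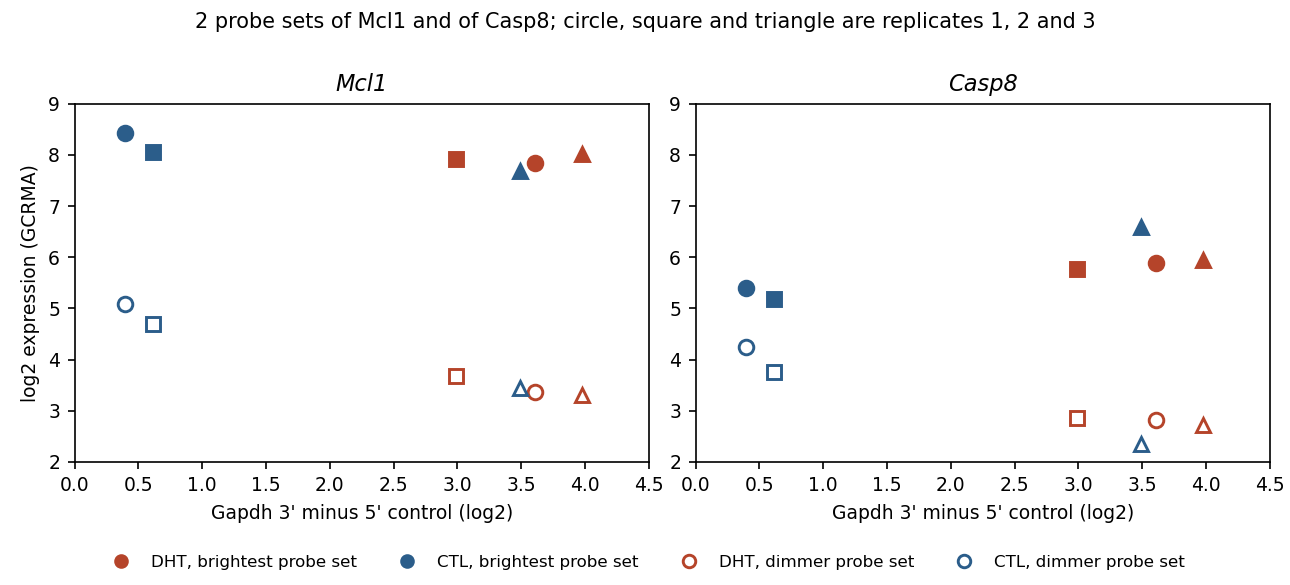
Log2 expression (GCRMA) of the brightest (filled) and the second (open) probe set of Mcl1 and Casp8 against the log2 difference between the 3′ and 5′ Gapdh controls of the same array, for 3 DHT and 3 CTL animals. CTL replicates 1 and 2, at 0.39 and 0.62, held the highest values of both second probe sets, 5.08 and 4.69 for Mcl1 and 4.25 and 3.75 for Casp8, while CTL replicate 3, at 3.49, lay with or below the DHT animals.

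Casp9, the initiator caspase of the mitochondrial route, was low and level. It read 2.98, 2.91 and 2.86 in DHT ovaries, against 2.81, 2.92 and 2.91 in CTL ovaries, and was above background on 3 DHT and 2 CTL arrays. The values of the groups were interleaved. Its log2 difference was 0.03 ± 0.07 (SE), with an adjusted limma p of 0.896 and a fold interval of 0.909 to 1.15. The pools read 3.19 for DHT and 3.18 for CTL, and its other probe sets were not above background.

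**Figure D3:**
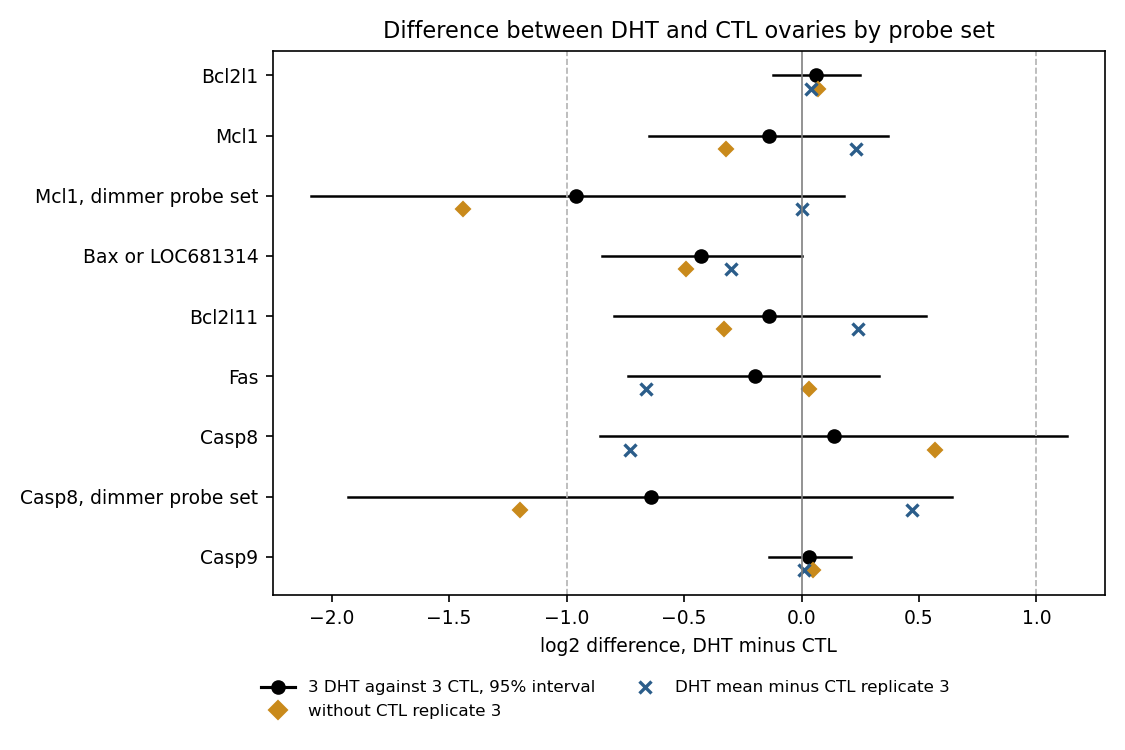
Log2 difference between DHT and CTL ovaries for the probe sets of the members, with Bcl2 and Bid left out as near background. Black circles and bars give the limma estimate of 3 DHT against 3 CTL animals with its 95% interval, diamonds the value without CTL replicate 3 and crosses the DHT mean minus CTL replicate 3; dashed lines mark a 2-fold change. The diamonds and crosses lie on opposite sides of 0 for Mcl1, Bcl2l11, Fas and both probe sets of Casp8, and close together for Bcl2l1 and Casp9.

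The other genes of the same routes were described from 8 lists holding 49 genes, of which 43 were measured. None was called in either direction, against 0.351% of all probe sets called lower and 0.68% called higher. An unadjusted limma p under 0.05 was found for 6 of the 43, beside 11.9% of all probe sets. Log2 differences were below 0 for 21 and above 0 for 22 genes. The groups did not overlap for 9 genes, 4 lower in DHT ovaries (Bcl2a1, Casp1, Casp12 and Endog) and 5 higher (Bok, Tnfsf10, Mdm2, Foxo1 and Foxo3), beside 6.85% and 10.6% of all probe sets. Of the 43, 30 were above background on all 6 arrays and 6 on none.

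Among the other BCL2 family genes, Bcl2a1, a survival protein known from blood cells and inflamed tissue, read 2.89, 3.16 and 2.92 in DHT ovaries, against 4.82, 4.13 and 3.31 in CTL ovaries. CTL replicate 3 was nearest to the DHT animals. The log2 difference was −1.10 ± 0.39 (SE, adjusted limma p 0.37), and without CTL replicate 3 it was −1.49 and was called, with an adjusted limma p of 0.055. The macrophage markers had lower means in DHT ovaries for 4 of 5 genes (list mean 3.97 to 4.20 on the DHT arrays and 4.08 to 4.99 on the CTL arrays), with none at background on all arrays, and their part in the Bcl2a1 values was not tested. Bok, a BAX-like pore former known from ovary, read 7.53, 7.33 and 7.35 in DHT ovaries and 6.84, 6.60 and 5.64 in CTL ovaries. All DHT animals lay above the CTL animals, the fold change was 2.06 with a 95% interval of 1.16 to 3.68, and the adjusted limma p of 0.299 did not pass. Without CTL replicate 3 the log2 difference was 0.69, under a 2-fold change, against 1.04 with it, and averaged over all its probe sets it was 0.18 (adjusted limma p 0.906). The pools of Bok were 7.43 for DHT and 6.65 for CTL.

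Of the BH3-only and related genes, Bnip3l, a mitophagy receptor, had the smallest p, with 9.51, 9.47 and 9.13 in DHT ovaries and 9.14, 8.86 and 7.56 in CTL ovaries (log2 difference 0.85 ± 0.44 SE, adjusted limma p 0.572). CTL replicate 3 was lowest and the groups overlapped by DHT replicate 3 and CTL replicate 1. The Bnip3l difference was 0.37 without CTL replicate 3. Among the other caspases it was Casp12, a caspase of the inflammatory group, at 3.20, 3.18 and 3.21 in DHT ovaries, against 3.62, 3.31 and 3.38 in CTL ovaries (log2 difference −0.24 ± 0.10 SE, adjusted limma p 0.436). Among the inhibitors of apoptosis and their antagonists, all 6 had log2 differences above 0, at a median of 0.09, and none passed. Without CTL replicate 3, Birc2 was at −0.27 and Htra2 at −0.09, against 0.46 and 0.08 with it, and the others stayed above 0. Xiap, which blocks active caspases, read 3.86, 4.40 and 4.60 in DHT ovaries and 3.54, 3.58 and 4.18 in CTL ovaries, with CTL replicate 3 inside the DHT range (log2 difference 0.52 ± 0.27 SE, adjusted limma p 0.568).

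In the death receptor list, the Fas ligand gene Faslg and Tnf were not above background on any array, and Tnfsf10, which encodes the death ligand TRAIL, was the gene with the smallest p. It read 5.29, 5.51 and 5.95 in DHT ovaries, against 3.97, 4.72 and 4.11 in CTL ovaries. Every DHT animal exceeded every CTL animal, and the fold change was 2.48 (95% interval 1.55 to 3.98, adjusted limma p 0.132). The pools were 5.55 for DHT and 4.74 for CTL. With the pools counted as replicate 4 it was called, with an adjusted limma p of 0.0262, although pooled RNA repeats the same animals. Endog, a mitochondrial nuclease, was not above background in DHT ovaries (2.21, 2.18 and 2.22) and was above it in 1 of the CTL ovaries (2.66, 2.98 and 2.23).

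Among regulators of the family, all 5 measured genes had log2 differences above 0, at a median of 0.35, and none was called. Foxo1, a FOXO factor abundant in granulosa cells, read 7.34, 6.91 and 6.33 in DHT ovaries and 5.46, 5.01 and 5.55 in CTL ovaries. The lowest DHT animal was above the highest CTL animal, and the fold change of 2.87 had a 95% interval of 1.70 to 4.85 and an adjusted limma p of 0.123. With the pools, at 6.76 for DHT and 5.38 for CTL, counted as replicate 4 it was called, with an adjusted limma p of 0.0115. As for Tnfsf10, the pooled RNA repeats the same animals. Averaged over all its probe sets the log2 difference of Foxo1 was 0.48 (adjusted limma p 0.178), against 1.52 for the brightest. Foxo3, which restrains primordial follicles in the mouse, read 7.87, 7.84 and 8.28 in DHT ovaries and 7.28, 7.22 and 6.39 in CTL ovaries, a fold change of 2.05 with an adjusted limma p of 0.24. CTL replicate 3 was its lowest value, and without that array the log2 difference was 0.75, against 1.03 with it. The granulosa marker list mean was also higher on the DHT arrays, as given above, but not by every marker. Log2 differences were 1.79 for Inha and 0.97 for Amh, against 0.09 for Foxl2 and 0.22 for Nr5a2. Without CTL replicate 3, Foxl2 was at −0.03 and Nr5a2 at −0.18. The part of these markers in the Foxo1 and Foxo3 values was not tested. Mdm2, the p53 inhibitor, differed by 0.35 on the log2 scale with an adjusted limma p of 0.33.

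**Figure D4:**
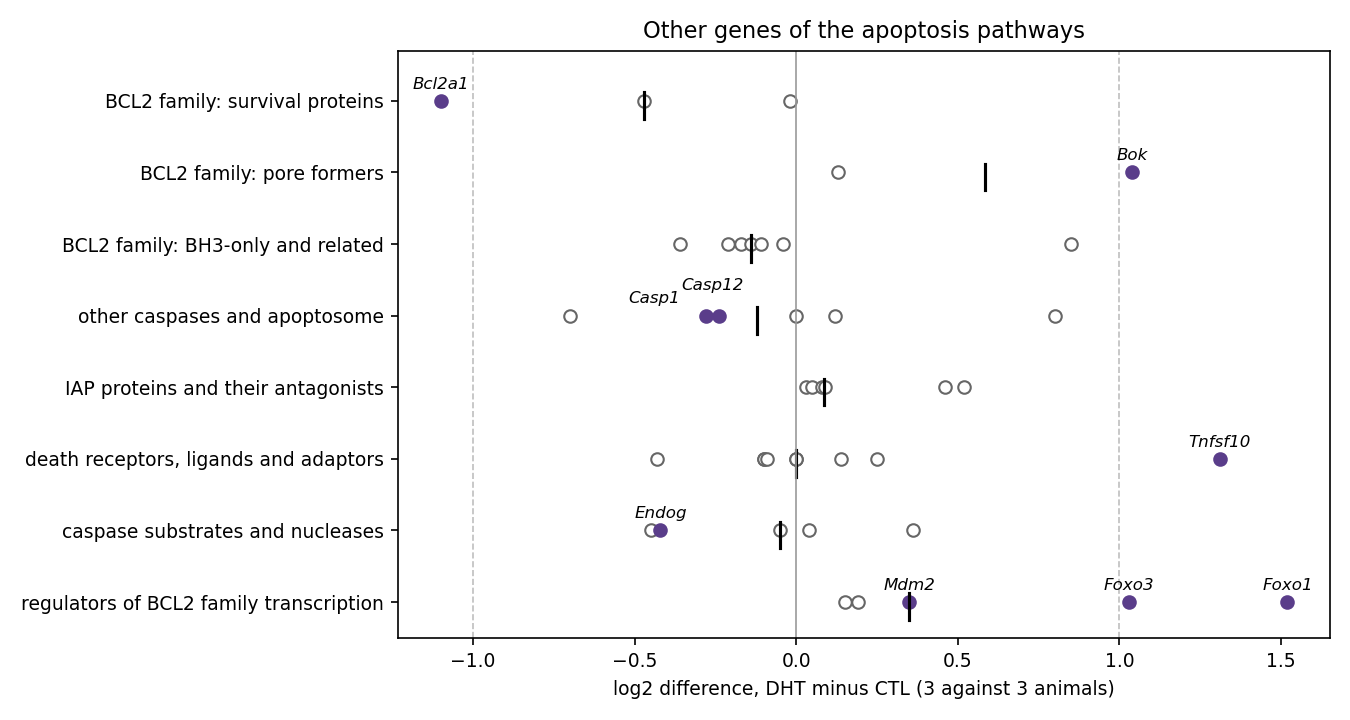
Log2 difference, DHT minus CTL (3 against 3 animals), of 43 other apoptosis genes in 8 lists. Filled points are the 9 genes whose groups did not overlap, each named, bars mark list medians and dashed lines a 2-fold change; Bcl2a1 lies past the lower line at −1.10, and Bok, Foxo3, Tnfsf10 and Foxo1 past the upper line at 1.04 to 1.52.

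The genes whose pattern over the 6 single-animal arrays was most like that of a member were found among 11186 genes above background on at least 1 array, as a description over 6 arrays that each share 1 RNA sample and its state. For Mcl1 they were Eif4e and Vps36 (Pearson r of 0.993 each), for Bcl2l11 they were C1r and Slx9 (0.990 and 0.981), and for Casp8 they were Riok1 and Nop2 (0.999 and 0.996). The Casp8 pattern was shared widely, with 174 genes at r above 0.95, against 40 for Mcl1 and 13 for Bcl2l11. The patterns of Bcl2 and Fas, which were high on CTL replicate 3 and level elsewhere, were shared at r above 0.95 by 874 and 876 genes.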

How the data were processed

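Gene expression was measured in ovarian cortex of 3 DHT-treated and 3 CTL rats on arrays of single animals, with 1 array of pooled RNA per group. GCRMA was used by the authors for background correction and normalization, and the table they deposited holds log2 values for 31099 probe sets. The 57 that are Affymetrix controls were not tested. Gene names came from the platform annotation. GCRMA shrinks dim probe sets towards a common level, so differences near background are understated. The number of arrays limits the precision.

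Groups and replicate numbers were taken from the labels. Separate animals were compared with limma 3.58.1 (lmFit and eBayes, run in R 4.3.3). The p-values were adjusted by Benjamini-Hochberg over the 31042 remaining probe sets, and every adjusted p of a gene comes from limma. Pooled arrays were used as a check, since they hold the same RNA. All members were named with every probe set, and of each other list the genes called and the gene with the smallest p. Other genes were named, after their values were seen, because their groups did not overlap or because they were not above background. The members and lists were chosen with earlier results of these data known. Scripts were tested on simulated data that gave both groups the same spread, unlike the arrays, where CTL replicate 3 stood apart. There the criteria recovered 28% of log2 changes of 1, which lie at the fold minimum itself, and 80% to 96% of changes of 2 to 4. Another 12 probe sets were called falsely. A count of 0 called therefore does not exclude 2-fold changes. Alternatives were the pooled arrays as replicate 4, a replicate block, quantile normalization, median scaling, omission of dim probe sets, a mean-variance trend, a covariate for the Gapdh 3′ to 5′ difference, no fold minimum, averaging the probe sets of each gene and leaving out each array. Promoter windows came from RefSeq (GRCr8).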

Additional observations from a re-analysis of the deposited data

How the results depend on the processing

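No member was called at its brightest probe set under any alternative, but the second probe sets of Mcl1 (−1.44) and Casp8 (−1.20) were called without CTL replicate 3. The number of probe sets called, 320 in the fit reported, was 966 with the pools as replicate 4, 173 after quantile normalization, 61 with a mean-variance trend, 3747 with the Gapdh difference as a covariate, 581 with no fold minimum and 0 to 1622 with 1 array left out. It was 0 without any 1 of the DHT replicates (2529 to 2623 at an unadjusted limma p under 0.05), against 181, 92 and 1622 when CTL replicate 1, 2 or 3 was the array left out. Of the calls, 65.9% were higher in DHT ovaries in the fit reported, against 50.3% after quantile normalization, 55.2% with the pools, 34.4% with the trend, 70.8% after median scaling, 71.0% with the Gapdh covariate and 39.8% to 54.3% with 1 of the CTL arrays left out. Of the 43 other genes, 3 were called with the pools (Bcl2a1, Tnfsf10 and Foxo1), beside 3.11% of all probe sets. With dim probe sets left out 1 was called (Foxo1), beside 444 of the probe sets kept. With the Gapdh covariate 9 were called, beside 3747 of 31042 probe sets. With an array left out 0 to 1 were called, beside 0 to 1622 of all probe sets. With the replicate number as a block, limma called 0 probe sets (3817 at an unadjusted p under 0.05). The deviations of same-numbered arrays correlated at −0.07, 0.44 and 0.34, so the numbers were not taken to pair the animals.

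Of 252 alternative values over 17 genes or probe sets, 16 tested values changed sign and 9 passed the threshold newly. Of the untested differences between pools, 3 moved by more than the spread between animals (Casp12 −0.07, Xiap 1.05 and Tnfsf10 0.81), and that of Fas, 0.02, lay on the other side of 0 from the fit. With the Gapdh covariate the sign changed for Bcl2l11 (0.24), Mcl1 (0.20), its second probe set (0.01), Bid (0.04), Casp8 (−0.70, adjusted limma p 0.0274) and its second probe set (0.43). In that fit the CTL side rests mainly on replicate 3. The DHT mean minus CTL replicate 3 was close to these values, at 0.24 for Bcl2l11, 0.23 for Mcl1 and −0.73 for Casp8. With the mean of all probe sets it changed for Bcl2l1 (−0.05), Casp8 (−0.25) and Casp9 (−0.01), and after quantile normalization for Casp8 (−0.08). Values that kept their sign but moved included Fas (−0.64) and Bcl2a1 (−0.31) with the Gapdh covariate and, with the mean of all probe sets, Mcl1 (−0.55), Bok (0.18) and Foxo1 (0.48). With 1 array left out, log2 differences ranged over −0.33 to 0.11 for Bcl2l11, −0.32 to 0.04 for Mcl1, −0.16 to 0.01 for Bid, −0.13 to 0.57 for Casp8 and −0.32 to 0.03 for Fas. Apart from the dependence of the covariate fit on CTL replicate 3, the cause of these changes was not tested.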
